A study of Mus musculus with 7 samples.

Results

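Secreted Wnt inhibitors and Wnt readouts were followed in bulk RNA-seq of embryonic mouse retina. Their 9 genes were picked by symbol from the count table (*Sfrp1*, *Sfrp2*, *Sfrp5*, *Dkk1*, *Dkk3*, *Wif1*, *Fzd5*, *Lef1* and *Axin2*), and each symbol named exactly 1 of its 48440 rows. The question was whether the fall of *Sfrp2* in *Ptbp1* mutants came with a change of the Wnt target genes *Lef1* and *Axin2*. All 7 libraries were made at E16 from pooled retinas that carried a Cre transgene. It drives a Cre-GFP fusion in retinal progenitors, and Cre removes the start of the *Ptbp1* gene, promoter included, from the floxed allele. The WT library (Cre alone) had no floxed *Ptbp1* allele, the 3 Het libraries (Ptbp1lox/WT with Cre) had 1, and the 3 KO libraries (Ptbp1lox/lox with Cre) had 2. *Ptbp1* itself was at 381 CPM in WT, 210 to 234 CPM in Het, and 27.9, 6.04 and 46.9 CPM in KO1, KO2 and KO3, which matches the order of the labels. CPM are gene counts divided by the TMM-scaled library size, and positions are in GRCm38.

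Wnt proteins bind Frizzled receptors together with the coreceptors Lrp5 and Lrp6. In the canonical branch of the pathway this stabilises β-catenin, which enters the nucleus and activates target genes with TCF/LEF factors. Secreted inhibitors act outside the cell. Sfrp proteins carry a Frizzled-like cysteine-rich domain and bind Wnts, Wif1 also binds Wnts, and Dkk1 binds the Lrp coreceptors. In the embryonic eye, canonical Wnt activity is known to be high at the ciliary margin, the rim of the retina that gives rise to ciliary body and iris, and low in the central neural retina.

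Upstream stretches of 3 of the genes are shown. *Sfrp2* is the inhibitor whose fall raised the question, and *Axin2* is the classic readout. *Dkk1* was picked after the search, as the gene in whose window TCF/LEF letters were found. RefSeq (GRCm38.p6) windows of 300 bases, 250 before and 50 after the start site, were used for 7 of the 9 genes, all but *Sfrp1* and *Dkk3*. The letters CTTTGAA and CTTTGAT, the TCF/LEF core, were searched on both strands. These motifs share their first 6 letters, and no position was counted for both. Such a match was found in 8.65% of all 32851 windows and in 1 of the 10 windows of these genes, 4 of which belong to *Lef1*. The *Lef1* windows held no match and are not shown. The 250 bases before each start site are given 5′ to 3′ on the strand of the gene, with the match in capitals.
Sfrp2 (chr3:83766071-83766320, plus strand): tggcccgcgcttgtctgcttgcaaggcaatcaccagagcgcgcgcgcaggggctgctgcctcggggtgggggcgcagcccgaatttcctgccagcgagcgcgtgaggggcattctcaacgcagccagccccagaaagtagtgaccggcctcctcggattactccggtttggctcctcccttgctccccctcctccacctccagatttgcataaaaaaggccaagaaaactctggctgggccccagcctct
Axin2 (chr11:108920099-108920348, plus strand): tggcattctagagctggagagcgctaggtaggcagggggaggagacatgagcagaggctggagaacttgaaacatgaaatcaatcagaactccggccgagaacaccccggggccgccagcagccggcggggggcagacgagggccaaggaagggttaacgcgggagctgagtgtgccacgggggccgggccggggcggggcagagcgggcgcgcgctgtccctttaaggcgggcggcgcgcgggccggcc
Dkk1 (chr19:30549497-30549746, minus strand): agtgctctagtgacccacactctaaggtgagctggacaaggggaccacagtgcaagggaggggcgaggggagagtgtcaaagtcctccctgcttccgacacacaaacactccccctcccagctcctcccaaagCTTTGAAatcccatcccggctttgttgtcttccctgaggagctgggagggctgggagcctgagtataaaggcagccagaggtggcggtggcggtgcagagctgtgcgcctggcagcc
The *Dkk1* match began 117 bases before the start site. A match describes letters only and does not show binding, and the lack of one says nothing about TCF/LEF factors at *Sfrp2* or *Axin2*.

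Counts on genes summed to between 120593979 and 171117305 per library, so even *Dkk1* was read at up to 187 counts. Markers of other tissues were uneven across the pools. Skeletal muscle markers summed to 320 CPM in Het1 and to 7.97 to 10.3 CPM in the other libraries. Periocular mesenchyme and pigment epithelium markers were also highest in Het1, at 425 and 533 CPM, against at most 55.9 and 65.5 CPM elsewhere. The ciliary margin markers *Otx1*, *Msx1* and *Wfdc1* summed to 40.1 CPM in the WT library, to 23.7, 36.1 and 53.5 CPM in libraries Het1 to Het3 and to 3.99, 5.43 and 45.2 CPM in libraries KO1 to KO3. They were thus low in KO1 and KO2 but not in KO3. Lens markers had the same order within the KO libraries, at 1.72, 4.36 and 47.0 CPM, and ranged from 22.1 to 76.3 CPM in Het. The retinal progenitor markers *Rax*, *Six3*, *Six6*, *Lhx2*, *Sox2*, *Pax6* and *Hes1* were all detected, and they summed to 1997 to 2082 CPM in Het and to slightly lower levels, 1940 to 1960 CPM, in KO. By edgeR, 0 of these 7 markers were differentially expressed (0 by DESeq2), although 3 had an unadjusted p below 0.05. *Six6*, lower in KO, had an adjusted p of 0.0258 (edgeR), but its log2 fold change of -0.20 was under the limit of a 1.2-fold change. Photoreceptor precursor markers summed to 727 to 817 CPM in Het and 914 to 1046 CPM in KO without overlap. Taken singly, 36.3% of all genes tested did not overlap between Het and KO. Of the 8 precursor markers, 4 were differentially expressed and higher in KO, among them *Nrl* (log2 fold change 1.41) and *Nr2e3* (3.34). Of 7 ganglion cell markers 1 was higher (*Thy1*) and 1 lower (*Isl1*, -0.68). Over all genes tested, 4.01% were higher and 3.21% lower by the same rule. The part of these cell types in the results was not tested. In such bulk pools, fewer cells of a type and less RNA per cell cannot be told apart.

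Between the 3 Het and the 3 KO libraries, 2 of the 8 genes that passed the expression filter were differentially expressed, *Sfrp1* and *Sfrp2*, and both were lower in KO. The test was edgeR's quasi-likelihood test on all 20019 genes that passed its expression filter, with a limit of 0.05 on the adjusted p and a change of over 1.2-fold in either direction. Over all genes tested, 7.22% were differentially expressed, 4.01% with higher and 3.21% with lower levels in KO. The 8 genes had a median log2 fold change of -0.38, and all genes tested had -0.0047. The fall of *Sfrp2* in these libraries was known when the set was chosen. The count and the median of the set are therefore descriptions and not independent evidence. *Sfrp5* did not pass the filter.

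**Figure D1:**
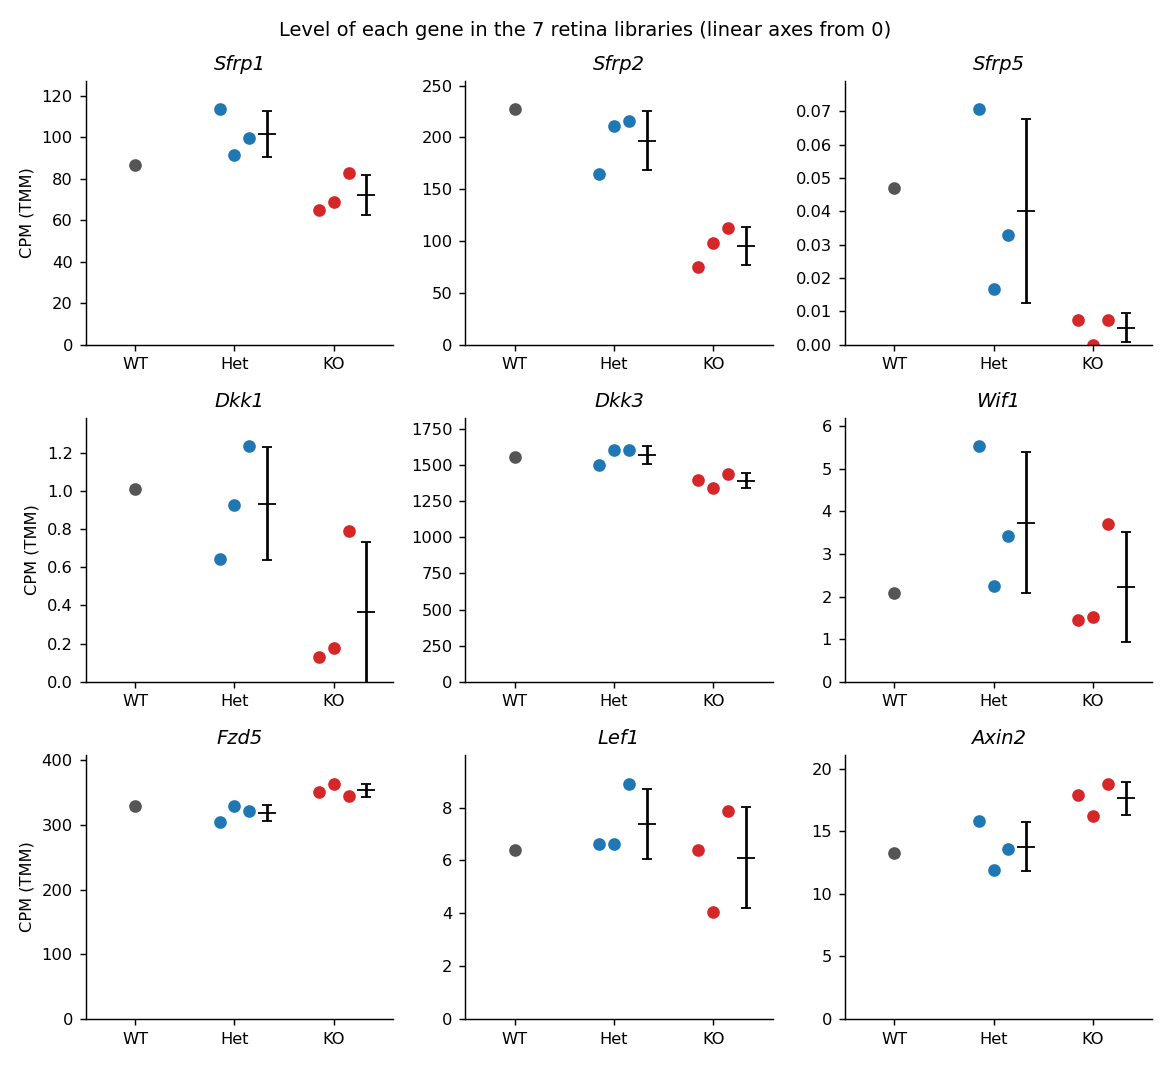
CPM of each of the 9 genes in the WT, Het and KO libraries; dots are libraries in the order 1 to 3, and the bar beside them is the mean with its SD (n = 3), which reaches below the axis for *Dkk1* in KO. *Sfrp2* lay between 75.2 and 112 CPM in KO, below every Het library, while *Axin2* lay between 16.2 and 18.8 CPM in KO, above every Het library, and *Lef1* overlapped.

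*Sfrp2* (ENSMUSG00000027996.13; plus strand, 83766321 to 83774316 on chromosome 3) is a marker of early-stage retinal progenitors and was named for its fall by the study on these same libraries, so its fall is the starting point here and not independent evidence. It was at 227 CPM in the WT library, at 165, 211 and 216 CPM in libraries Het1 to Het3 and at 75.2, 97.9 and 112 CPM in libraries KO1 to KO3. The KO libraries were all below the Het libraries, and WT was the highest of the 7. The mean was 197 ± 28.2 CPM in Het and 95.1 ± 18.6 CPM in KO (SD, n = 3 each), that is 86.7% and 41.8% of the WT value. From Het to KO the log2 fold change was -1.05 (95% interval -1.44 to -0.66; adjusted p = 0.0148, edgeR). KO3, the KO library with ciliary margin markers at the level of WT and Het, was also below every Het library. Of the KO libraries it also had the most lens markers (47.0 CPM) and the most *Ptbp1* (46.9 CPM). The part of the ciliary margin in the fall of *Sfrp2* was not tested. With KO3 as the only KO library, whose spread is then assumed to equal that of the Het libraries, the log2 fold change was -0.82 (95% interval -1.28 to -0.36) and the adjusted p 0.0749 (edgeR). The call was also lost without Het2, without Het3 or without KO2, with log2 fold changes of -0.999, -0.98 and -1.07, in fits that called 1.93%, 2.49% and 3.06% of all genes tested. An antisense gene, *Gm26771*, overlaps *Sfrp2* and held 23 to 51 counts, and strand use in counting is not given.

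*Sfrp1* (ENSMUSG00000031548.7; chromosome 8, 23411502 to 23449632, plus strand) encodes the closest relative of *Sfrp2* among these genes, together with *Sfrp5*. It was measured at 86.8 CPM in the WT library, at 113, 91.4 and 99.6 CPM in libraries Het1 to Het3 and at 65.0, 68.6 and 83.0 CPM in libraries KO1 to KO3. The KO libraries did not overlap with Het, but WT lay between the groups. The mean went from 101 ± 11.2 CPM in Het to 72.2 ± 9.50 CPM in KO (SD, n = 3 each), and the log2 fold change was -0.49 (SE 0.112, adjusted p = 0.0395, edgeR). *Sfrp1* kept its direction but lost the call in every fit that left out 1 library except the fit without KO3, with adjusted p between 0.0746 and 0.122 (edgeR), and under the replicate block (adjusted p = 0.0590, edgeR). With KO3 as the only KO library its log2 fold change was -0.30 (95% interval -0.64 to 0.040).

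*Sfrp5* (ENSMUSG00000018822.7; chromosome 19, 42197971 to 42202252, minus strand) was close to the limit of detection. Its raw counts were 7 in WT, 12, 2 and 5 in Het1 to Het3, and 1, 0 and 1 in KO1 to KO3. Every KO library was therefore below 3 counts, and Het2 was as well. In the fit without a filter its adjusted p was 0.131 (edgeR). The summed counts, 2 in KO against 19 in Het, gave a ratio of 0.117 with an exact 95% interval of 0.0132 to 0.484, which covers counting error only and not the spread between pools.

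The Dickkopf genes were far apart in level per kb of exon, *Dkk3* at the top and *Dkk1* near the bottom of the 9 genes. *Dkk3* (ENSMUSG00000030772.6; chromosome 7, 112116017 to 112159057, minus strand) encodes a divergent Dickkopf protein whose effect on Wnt signalling is less clear than that of Dkk1. It was at 1554 CPM in the WT library, at 1498, 1603 and 1604 CPM in libraries Het1 to Het3 and at 1399, 1339 and 1438 CPM in libraries KO1 to KO3. Every KO library was below every other library, by a small step. The log2 fold change was -0.17 (95% interval -0.29 to -0.057; adjusted p = 0.0671, edgeR). DESeq2 gave *Dkk3* an adjusted p of 0.00128, but the change stayed under the fold limit. *Dkk1* (ENSMUSG00000024868.8; chromosome 19, 30545863 to 30549665, minus strand) was at 1.01 CPM in the WT library, at 0.642, 0.923 and 1.23 CPM in libraries Het1 to Het3 and at 0.128, 0.175 and 0.788 CPM in libraries KO1 to KO3. KO1 and KO2 were the lowest libraries, while KO3 lay within the Het range, the same order as the ciliary margin markers. For *Dkk1* the log2 fold change was -1.35 (95% interval -2.99 to 0.28; adjusted p = 0.236, edgeR). Without KO3 it was -2.61 and passed the test (adjusted p = 0.0159, edgeR), and with KO3 as the only KO library it was -0.25 (adjusted p = 0.751, edgeR). The part of the ciliary margin in this difference was not tested.

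*Wif1* (ENSMUSG00000020218.11; chromosome 10, 121033960 to 121100650, plus strand) was low and scattered. It was at 2.09 CPM in the WT library, at 5.53, 2.26 and 3.42 CPM in libraries Het1 to Het3 and at 1.44, 1.51 and 3.71 CPM in libraries KO1 to KO3. The highest value was in Het1, the library with the muscle, mesenchyme and pigment cell markers, and KO3 was again the highest KO library. The log2 fold change of -0.75 had a 95% interval from -1.87 to 0.36 and did not pass the test (adjusted p = 0.323, edgeR). It was -0.36 without Het1, -1.34 without KO3 and -0.019 with KO3 as the only KO library.

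*Fzd5* (ENSMUSG00000045005.9; chromosome 1, 64730558 to 64737751, minus strand), a Wnt receptor of retinal progenitors, was slightly higher in KO without passing the test. It was at 330 CPM in the WT library, at 305, 329 and 321 CPM in libraries Het1 to Het3 and at 351, 364 and 346 CPM in libraries KO1 to KO3. All KO libraries were above all others. Het and KO did not overlap, in either direction and with WT left aside, in 5 of the 8 tested genes of this set. The same held for 36.3% of all genes tested. The share of genes with all KO libraries also above WT was not counted. The KO mean of *Fzd5* was 111% of the Het mean, a log2 fold change of 0.15 (95% interval 0.055 to 0.25; adjusted p = 0.0587, edgeR). Its change was under the fold limit in every fit run, and its adjusted p was 0.00910 by DESeq2.

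The Wnt readouts differed in sign, and neither passed the edgeR test. *Axin2* (ENSMUSG00000000142.15; chromosome 11, 108920349 to 108950783, plus strand) encodes a scaffold of the β-catenin destruction complex and is itself induced by canonical Wnt signalling. It was at 13.3 CPM in the WT library, at 15.8, 11.9 and 13.6 CPM in libraries Het1 to Het3 and at 17.9, 16.2 and 18.8 CPM in libraries KO1 to KO3. All KO libraries were above all Het libraries and above WT, KO2 and Het1 being the closest pair. The mean was 13.8 ± 1.95 CPM in Het and 17.6 ± 1.31 CPM in KO (SD, n = 3 each), with KO at 133% of WT. Its log2 fold change was 0.36 (SE 0.111, 95% interval 0.089 to 0.62), with an unadjusted p of 0.0163 and an adjusted p of 0.0882 (edgeR), so the difference did not pass the test. It did pass by DESeq2 (adjusted p = 0.0110) and by edgeR without Het1 (adjusted p = 0.0384), and over the remaining alternatives the edgeR adjusted p ranged from 0.0570 to 0.211. With KO3 as the only KO library the log2 fold change was 0.44, and without KO3 it was 0.31. An unadjusted p below 0.05 was reached by 29.7% of all genes tested.

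*Lef1* (ENSMUSG00000027985.14; chromosome 3, 131110471 to 131224356, plus strand) encodes a TCF/LEF factor and is likewise a canonical target. It was at 6.41 CPM in the WT library, at 6.63, 6.61 and 8.91 CPM in libraries Het1 to Het3 and at 6.39, 4.07 and 7.85 CPM in libraries KO1 to KO3. The groups overlapped, at 7.38 ± 1.32 CPM in Het and 6.10 ± 1.91 CPM in KO (SD, n = 3 each), and the extremes were Het3 and KO2. For *Lef1* the KO minus Het value was -0.27 (log2), with a 95% interval from -0.86 to 0.32 (adjusted p = 0.491, edgeR), which leaves room for a KO level between 0.549 and 1.24 times that of Het. With KO3 as the only KO library the sign turned, to 0.082 (95% interval -0.47 to 0.64). Of the 3 KO libraries, KO3 had the most of the ciliary margin markers and the highest *Lef1*, and in Het both were highest in Het3. The other libraries did not share this order. KO1 and WT had 3.99 and 40.1 CPM of the markers, with nearly equal *Lef1*. KO2 had more of the markers than KO1 (5.43 CPM) but less *Lef1*. Het1 and Het2 had 23.7 and 36.1 CPM of the markers, again with nearly equal *Lef1*. The part of the margin in the level of *Lef1* was not tested. The exact two-sided permutation test of each gene alone, whose smallest possible p with 3 against 3 libraries is 0.1, gave 0.1 for *Sfrp2* and *Axin2* and 0.4 for *Lef1*.

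**Figure D2:**
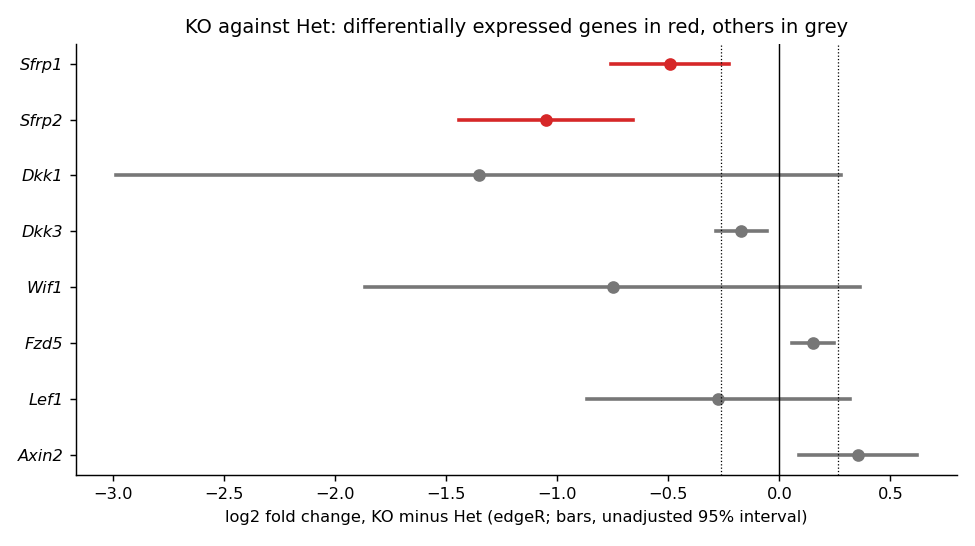
Log2 fold change of KO against Het (x axis) for the 8 tested genes, with unadjusted 95% intervals from edgeR as bars and dotted lines at a 1.2-fold change. *Sfrp1* and *Sfrp2* (red) were differentially expressed, the interval of *Axin2* was above 0 and that of *Lef1* reached from -0.86 to 0.32.

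Set beside the fall of *Sfrp2*, then, *Axin2* was higher in all 3 KO libraries without passing the edgeR test. It did pass by DESeq2 (adjusted p = 0.0110), the tool that the study used. *Lef1* passed no test under any of the alternatives run. In KO3, where the ciliary margin markers were within the Het range and *Ptbp1* was the highest of the KO libraries, *Sfrp2* was at 112 CPM (Het 165 to 216), *Axin2* at 18.8 CPM (Het 11.9 to 15.8), *Lef1* at 7.85 CPM (Het 6.61 to 8.91) and *Dkk1* at 0.788 CPM (Het 0.642 to 1.23). *Sfrp2* and *Axin2* were outside the Het range in this library, and *Lef1* and *Dkk1* were inside it. KO3 was singled out after the values were seen, and 1 library often lies outside the range of 3 by chance. The share of all genes outside the Het range in KO3 was not counted, so this split is a description only.

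**Figure D3:**
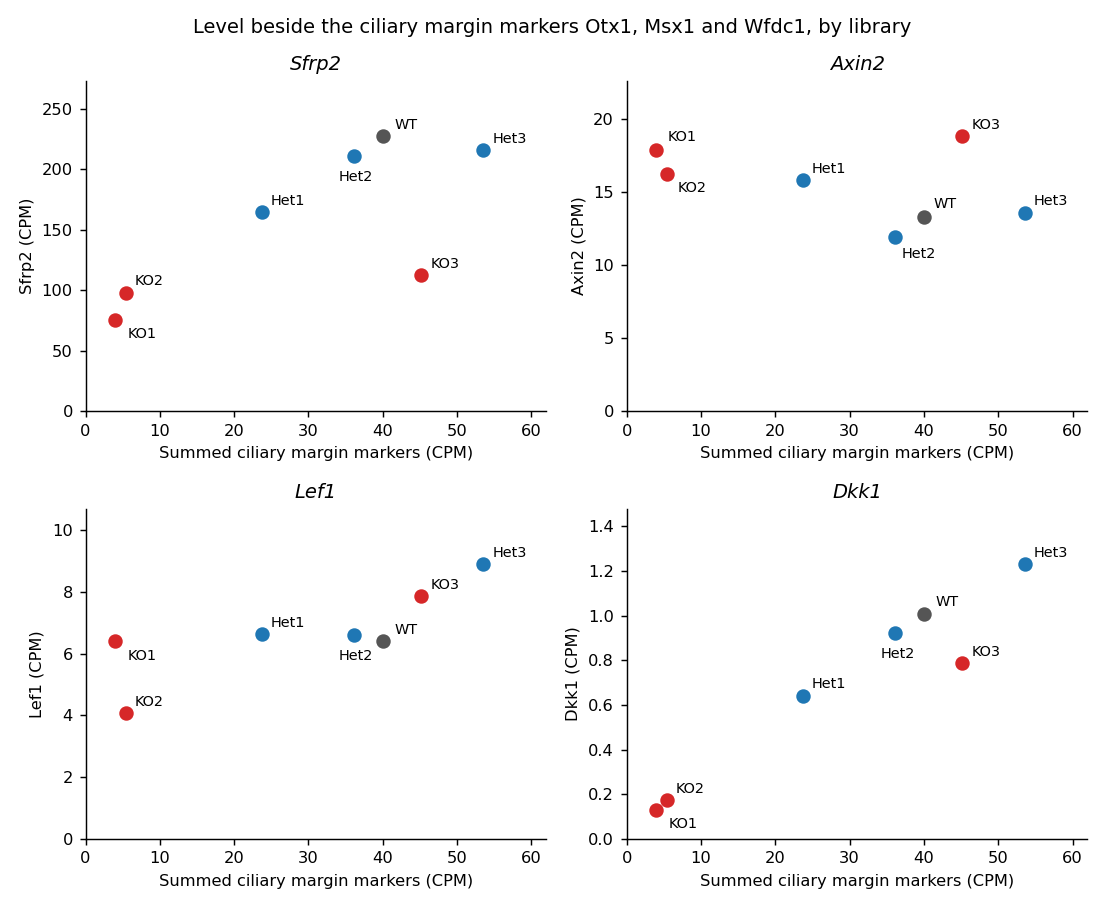
CPM of *Sfrp2*, *Axin2*, *Lef1* and *Dkk1* (y axes) beside the summed CPM of the ciliary margin markers *Otx1*, *Msx1* and *Wfdc1* (x axes) in each library. KO1 and KO2 lie at 3.99 and 5.43 CPM of these markers and KO3 at 45.2 CPM. *Dkk1* is lowest in KO1 and KO2, and *Sfrp2* is below every Het library in all 3 KO libraries. The part of the margin in these levels was not tested.

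Per kilobase of exon, the levels of the 9 genes spanned a wide range. Averaged over the 7 libraries, *Dkk3* stood at 444 CPM per kb, followed by *Sfrp2* (73.2), *Fzd5* (48.5), *Sfrp1* (19.9), *Axin2* (2.79), *Wif1* (1.17), *Lef1* (0.762), *Dkk1* (0.288) and *Sfrp5* (0.0137). The ranges over the libraries were apart for the neighbours *Dkk3* and *Sfrp2*, *Fzd5* and *Sfrp1*, *Sfrp1* and *Axin2*, and *Dkk1* and *Sfrp5*. *Sfrp2* and *Fzd5* overlapped: in Het, *Sfrp2* had 91.5 ± 13.1 CPM per kb and *Fzd5* 46.1 ± 1.73 (SD, n = 3 each), while in KO they had 44.2 ± 8.66 and 51.1 ± 1.39 (SD, n = 3 each), and *Sfrp2* was under *Fzd5* in KO1 and KO2. The ranges of *Axin2* and *Wif1*, of *Wif1* and *Lef1*, and of *Lef1* and *Dkk1* also overlapped.

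The WT library has no replicate, so it was set beside the groups without a test. Relative to WT, the Het mean was 117% for *Sfrp1*, 101% for *Dkk3*, 96.5% for *Fzd5*, 115% for *Lef1* and 104% for *Axin2*. *Dkk1* was at 92.4%, and *Wif1* at 179%, with Het1 the highest library.

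Across the 7 libraries, the 3 genes most like *Sfrp2* by the Pearson correlation of log2(CPM + 1), among 10050 genes of at least 10 CPM on average, were *Slc25a24*, *Msi2* and *Tgfbr1*, with r from 0.995 to 0.996. The genes most like *Axin2* were *St7l*, *Zcchc24* and *Col9a3* (r from 0.973 to 0.990), and those most like *Lef1* were *Pttg1ip*, *Slc44a1* and *Tmem165* (r from 0.930 to 0.963). These correlations are a description over 7 libraries that share the split by genotype and the uneven tissue content.

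The other genes of the pathway were described with 5 lists of 85 genes, of which 82 passed the filter. By edgeR 5 of them were differentially expressed, all lower in KO. Over all genes tested, 7.22% were differentially expressed in either direction and 3.21% were lower. By the adjusted p alone 7 of them passed, beside 11.1% of all genes tested. Among these 7 were *Apc*, higher in KO (log2 fold change 0.24, adjusted p = 0.0210, edgeR), and *Csnk1e*, lower in KO (-0.22, adjusted p = 0.0194, edgeR). Both were under the fold limit. DESeq2 called 12, 10 of them lower and 2 higher, beside 11.6% of the genes it tested. The median log2 fold change of the 82 genes was -0.12.

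Among Wnt ligands, R-spondins and the release machinery, 1 of 24 tested genes was differentially expressed. *Wnt5b*, a ligand mostly linked to the noncanonical branch, had 7.53 ± 0.0771 CPM in Het and 6.23 ± 0.113 CPM in KO (SD over 3 libraries each). Its log2 fold change was -0.27 (adjusted p = 0.0372, edgeR). The most abundant genes per kb of this list were *Porcn*, the acyltransferase that makes Wnts fit for secretion, and *Ndp*, the Frizzled4 ligand norrin, with log2 fold changes of -0.039 and 0.065. The median of the list was -0.50 and rose to 0.018 when Het1 was left out, and no gene of the list was then differentially expressed. Of the receptors, 1 of 20 was differentially expressed. *Fzd2* had 63.1 ± 2.0 CPM in Het and 51.7 ± 2.25 CPM in KO (SD over 3 libraries each), and its log2 fold change was -0.29 (adjusted p = 0.0120, edgeR), whereas the most abundant receptors *Ryk* and *Lgr4* had -0.088 and -0.049.

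Of the other secreted inhibitors, 0 of 5 tested genes were differentially expressed by edgeR and 1 by DESeq2, and 1 had an unadjusted edgeR p below 0.05. *Sostdc1* and *Frzb*, the most abundant of them per kb, had log2 fold changes of -1.19 and -0.054. *Sostdc1* was at 6.90 CPM in Het1 and at 0.845 to 2.30 CPM in the other libraries. The median of the list was -0.96, and it was 0.0035 over the 4 genes tested when Het1 was left out. Among the 20 transducers, which carry the signal inside the cell, 1 was differentially expressed. *Tcf7l1*, a TCF factor that mostly acts as a repressor, fell from 39.0 ± 2.84 CPM in Het to 28.7 ± 1.92 CPM in KO (SD over 3 libraries each), which is -0.44 on the log2 scale (SE 0.0688, adjusted p = 0.0147, edgeR). *Ctnnb1*, which encodes β-catenin, had -0.087 (adjusted p = 0.168, edgeR), and *Csnk1d* had -0.081.

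Of 13 further target and feedback genes, 2 were differentially expressed by edgeR, both lower in KO and thus opposite to *Axin2* in sign. Over all genes tested, 7.22% were differentially expressed in either direction and 3.21% were lower. DESeq2 called 4 of the 13 lower and 0 higher, beside 11.6% of all genes it tested in either direction. *Nkd1*, a feedback inhibitor that binds Dishevelled, was at 108 CPM in the WT library, at 111, 110 and 117 CPM in libraries Het1 to Het3 and at 99.8, 92.7 and 86.9 CPM in libraries KO1 to KO3. Every KO library was below every other library, KO3 the lowest, and the log2 fold change was -0.27 (adjusted p = 0.0285, edgeR). *Sp5*, a transcription factor and direct Wnt target, was lowly expressed, with 35 counts in WT, 43, 30 and 40 in Het1 to Het3, and 14, 10 and 11 in KO1 to KO3. Its log2 fold change was -1.53 (SE 0.249, adjusted p = 0.0165, edgeR). The most abundant gene of this list, the cyclin *Ccnd1*, had a log2 fold change of 0.10 (adjusted p = 0.243, edgeR). The median over the 13 genes was -0.52. It was -1.11 without KO3, when 7 of the 13 were differentially expressed, and 0.019 with KO3 as the only KO library, when 1 was. Over all genes tested, 8.39% were called without KO3 and 3.29% with KO3 as the only KO library.

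**Figure D4:**
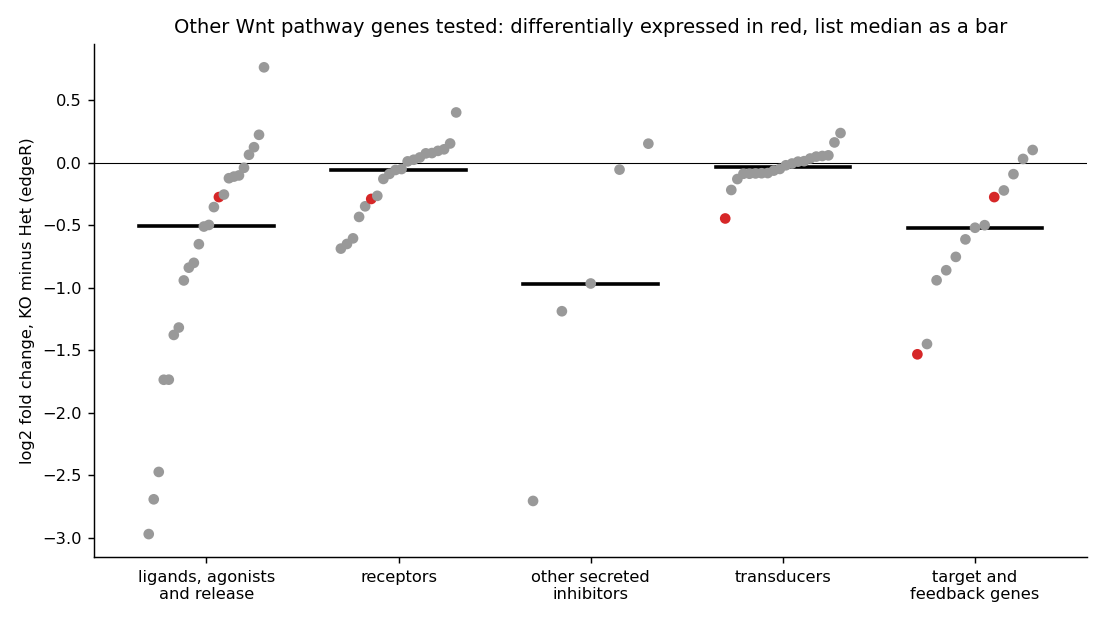
Log2 fold change of KO against Het (y axis) for the 82 tested pathway genes in 5 lists, with differentially expressed genes in red and the median of each list as a bar. All 5 differentially expressed genes are below 0, and the medians of the receptors (-0.053) and transducers (-0.034) are near 0. The lowest median is that of the other secreted inhibitors (-0.96), which was 0.0035 without Het1.

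An ordering taken from the 3 ciliary margin markers after the values were seen was counted over all genes. In it, KO1 and KO2 were both below each of the other 5 libraries, as for 12.2% of all genes tested. The margin markers had it because it was taken from them. It was also found for 6 of the 8 tested inhibitors and readouts (*Sfrp1*, *Sfrp2*, *Dkk1*, *Dkk3*, *Wif1* and *Lef1*). For *Lef1* the step was slight, with 6.39 CPM in KO1 and 6.41 CPM in WT. In the pathway lists, 8 of 13 target genes, 6 of 20 receptors and 5 of 24 ligands and release genes had it. So did 1 of 5 other secreted inhibitors, 3 of 20 transducers and 3 of 7 retinal progenitor markers. Of the tested markers of other tissues, 5 of 6 lens, 3 of 7 pigment epithelium and 1 of 9 periocular mesenchyme markers had it. It was found for 0 of 8 photoreceptor precursor, 0 of 7 ganglion cell and 0 of 9 skeletal muscle markers tested. *Notum*, a secreted Wnt deacylase chosen here after its values were seen, was at 6.04 CPM in WT, 3.48 to 7.55 CPM in Het, 0.641 and 0.950 CPM in KO1 and KO2, and 7.82 CPM in KO3. *Axin2* and *Fzd5* did not have this ordering. For *Dkk3*, *Sfrp1* and *Sfrp2*, KO3 too was below every Het library and below WT.

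The endothelial markers were counted as well, because vessels respond to canonical Wnt signals. All 8 summed to 389 CPM in WT, 386 to 407 CPM in Het and 483 to 579 CPM in KO, so the full list was higher in KO. *Kdr* took up most of the summed level and was itself higher in KO (log2 fold change 0.44, adjusted p = 0.0186, edgeR). Leaving out *Kdr* and then *Cldn5* was chosen after the values were seen. Without *Kdr*, the other 7 summed to 28.0 CPM in WT, 20.3 to 40.1 CPM in Het, and 17.2, 13.9 and 27.5 CPM in KO1 to KO3. Much of this was *Cldn5*, at 11.9 ± 1.2 CPM in Het and 13.9 ± 1.64 CPM in KO (SD, n = 3 each), and without it the other 6 summed to 9.02 to 26.9 CPM in Het and to 2.72, 1.82 and 12.3 CPM in KO1 to KO3. Of the 8 markers, 6 had the ordering with KO1 and KO2 lowest, and *Kdr* and *Cldn5* did not. The part of vessels in the readouts was not tested. Annotated genes that overlap *Sfrp2*, *Fzd5*, *Lef1* or *Axin2* held at most 145 counts in any library.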

How the data were processed

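The deposited table holds counts per gene for 7 libraries. According to the methods and labels, the authors aligned reads with STAR within rMATS-turbo to GRCm38 (mm10, GENCODE M10) and counted them with featureCounts. Its strand and multi-mapping settings are not given in the sources used here. The values are whole numbers without normalization and sum to 120593979 to 171117305 per library. Whether pools shared litters is not stated, so p-values measure the spread between these pools, which may be partly technical. No replicate pair agreed within counting noise (chi-square per degree of freedom 13.3 to 50.6).

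Genes that passed filterByExpr (20019) were normalized by TMM and fitted with edgeR 4.0.16 in R 4.3.3 by quasi-likelihood over all 7 libraries, with a mean per genotype and KO minus Het as the contrast. P-values were adjusted after Benjamini-Hochberg over all genes tested, and intervals of fold changes are unadjusted. Exon lengths and positions come from GENCODE M21 on GRCm38. The scripts were tested on simulated data. Alternatives were DESeq2 1.42.0, RLE and upper-quartile normalization, other filters, the 6 Het and KO libraries, a replicate block, leaving out single libraries and the adjusted p alone. The study itself used DESeq2, with the same limits on the adjusted p and the fold change. KO3 as the only KO library was an alternative chosen after seeing the data. One progenitor marker is not reported here. Members and lists were chosen with earlier results of these data known. Named by rule were the 9 members, the differentially expressed and the 2 most abundant genes per kb of each pathway list, and the 3 genes most like *Sfrp2*, *Lef1* and *Axin2*.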

Additional observations from a re-analysis of the deposited data

How the results depend on the processing

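Log2 fold changes of the 8 tested genes kept their direction under all alternatives except for *Lef1*, which reversed with KO3 as the single KO library (0.082, edgeR adjusted p = 0.843), an alternative chosen after seeing the data. There *Sfrp1* (-0.30) and *Sfrp2* (-0.82) also lost their calls. *Axin2* passed the test with DESeq2 (0.35) and without Het1, and *Dkk1* without KO3. Leaving out each library in turn, the log2 fold change ranged from -0.60 to -0.40 for *Sfrp1*, -1.18 to -0.91 for *Sfrp2*, -2.61 to -0.95 for *Dkk1*, -0.20 to -0.15 for *Dkk3*, -1.34 to -0.36 for *Wif1*, 0.12 to 0.17 for *Fzd5*, -0.49 to -0.053 for *Lef1* and 0.26 to 0.47 for *Axin2*. Of the 9 genes, 2 were differentially expressed, against 0 to 3 without single libraries (0 without Het2, Het3 or KO2, 1 without KO1, 3 without KO3), 0 with KO3 as the single KO library and 1 under the replicate block, where *Sfrp1* was at -0.49 but no longer past the limit. Of the other pathway genes, 5 were, against 0 to 14 without single libraries (0 without Het3, 1 without KO2, 2 without Het2, 3 without Het1 or KO1, 14 without KO3), 12 with DESeq2 and 1 with KO3 as the single KO library. Over all genes the calls were 1445, 386 without Het2, 496 without Het3, 612 without KO2, 1226 without KO1, 1228 without Het1, 1674 without KO3, 659 with KO3 as the single KO library, 1268 under the block and 2070 with DESeq2. The fits without Het2, Het3 or KO2 and with KO3 alone thus had fewer calls over all genes too. Same-numbered Het and KO libraries correlated in their deviations at -0.12, 0.26 and 0.019, and not every library correlated best with its own number, so the numbers were not taken to pair the pools. The causes of these shifts were not tested. Counts of at most 12 per library limit *Sfrp5*, which the expression filter removed.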
